A study of Arabidopsis thaliana with 6 samples.

Results

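The plant U-box (PUB) proteins described here are ubiquitin ligases encoded by 10 Arabidopsis thaliana genes, PUB12 (AT2G28830), PUB13 (AT3G46510), PUB18 (AT1G10560), PUB19 (AT1G60190), PUB20 (AT1G66160, also called CMPG1), PUB21 (AT5G37490), PUB22 (AT3G52450), PUB23 (AT2G35930), PUB24 (AT3G11840) and PUB54 (AT1G01680). They were taken by gene identifier from the 27655 genes of the deposited expression table, and all 10 were found there. Whole seedlings of the Col-0 accession, for which the labels name no transgene or mutation, were grown on agar plates to an age of 14 days. The submerged group was then held in distilled water for 1 h and the air group was left in air for the same time, with 3 libraries per group. The design text calls the replicates biological and says no more about how they were separated, so p-values reflect the scatter of these libraries only. RNA came from whole seedlings, so fewer cells of a type and less RNA per cell cannot be told apart.

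A ubiquitin ligase, or E3, brings a ubiquitin-loaded conjugating enzyme (E2) together with a target protein, and the attached ubiquitin often sends that target to the proteasome. The U-box is the surface that holds the E2, and in most plant members it is followed by armadillo repeats that bind the target. Several of the 10 are known as brakes: PUB12 and PUB13 ubiquitinate the flagellin receptor FLS2, PUB22, PUB23 and PUB24 dampen immune signalling, and PUB18 and PUB19 limit responses to abscisic acid and drought. PUB20 and PUB21 are relatives of a parsley gene that responds rapidly to fungal elicitor.

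Within 1 h under water, transcripts of PUB18, PUB20, PUB22, PUB23 and PUB54 rose at least 4-fold, and those of PUB13 and PUB24 rose by less. PUB12 and PUB19 did not pass the test, and PUB21 had too few counts to be tested. By edgeR's quasi-likelihood test with Benjamini-Hochberg adjustment over 19495 genes, 7 of the 9 tested PUB genes were called higher (adjusted p under 0.05) and 0 lower, where 28.8% of all genes were called higher and 26.1% lower. At an unadjusted p under 0.05, 0 of the 9 were lower, and DESeq2 called 0 lower. A rise of at least 4-fold was called for 5 of the 9, against 3.46% of all genes. PUB54, which is in both the 7 and the 5, passed the filter on low counts through its submerged libraries alone. These counts therefore describe the 9 tested genes and not all 10. The 10 genes were also chosen with earlier results of these data known, so the shares of all genes are given for scale and not as a test. The median log2 fold change of the 9 was 2.88, against 0.01 over all genes tested.

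The sequence just upstream of the 5 genes called at least 4-fold higher is shown first. Each line gives 250 bases that end immediately before the annotated gene start, on the gene's own strand, 5′ to 3′, from the RefSeq TAIR10.1 assembly and annotation. Capitals mark matches on either strand to the W-box bound by WRKY factors (TTGACC or TTGACT), the rapid stress response element CGCGTT, and the G-box CACGTG.

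PUB18, chr1:3484149-3484398, plus strand: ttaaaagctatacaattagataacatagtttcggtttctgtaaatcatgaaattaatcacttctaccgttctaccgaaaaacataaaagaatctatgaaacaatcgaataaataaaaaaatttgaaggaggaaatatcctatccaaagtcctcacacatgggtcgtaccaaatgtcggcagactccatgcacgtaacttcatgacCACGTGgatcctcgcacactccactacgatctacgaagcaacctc

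PUB20, chr1:24636946-24637195, plus strand: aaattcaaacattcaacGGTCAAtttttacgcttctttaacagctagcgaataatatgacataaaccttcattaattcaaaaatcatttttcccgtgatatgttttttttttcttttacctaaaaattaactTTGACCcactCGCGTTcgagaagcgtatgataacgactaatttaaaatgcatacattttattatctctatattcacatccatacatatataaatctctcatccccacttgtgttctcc

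PUB22, chr3:19442428-19442677, minus strand: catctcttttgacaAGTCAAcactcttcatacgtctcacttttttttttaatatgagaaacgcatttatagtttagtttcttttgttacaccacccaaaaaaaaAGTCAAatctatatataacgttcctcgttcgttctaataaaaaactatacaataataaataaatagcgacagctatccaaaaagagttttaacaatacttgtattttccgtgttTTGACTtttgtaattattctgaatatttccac

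PUB23, chr2:15084560-15084809, minus strand: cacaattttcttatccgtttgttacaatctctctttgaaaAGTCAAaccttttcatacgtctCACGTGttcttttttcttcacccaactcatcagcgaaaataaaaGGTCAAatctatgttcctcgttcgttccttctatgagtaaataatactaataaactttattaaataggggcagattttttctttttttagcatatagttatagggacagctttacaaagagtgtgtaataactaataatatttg

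PUB54, chr1:248441-248690, minus strand: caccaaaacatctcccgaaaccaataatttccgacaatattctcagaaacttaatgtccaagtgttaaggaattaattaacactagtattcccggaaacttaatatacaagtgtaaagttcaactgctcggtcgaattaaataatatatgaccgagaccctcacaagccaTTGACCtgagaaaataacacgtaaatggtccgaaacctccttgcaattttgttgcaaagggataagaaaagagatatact

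A W-box in either form lay in this window of 4 of the 10 genes, PUB20, PUB22, PUB23 and PUB54, and in 28.4% of 27438 protein-coding genes on the 5 nuclear chromosomes. PUB20 held 2 copies of TTGACC and 1 of CGCGTT, a combination of motifs that did not overlap each other. PUB22 held 3 copies of TTGACT, and PUB23 held 1 of each W-box form together with a G-box. TTGACC was found in 12.2% and TTGACT in 19.1% of all such windows, CGCGTT in 2.59% and CACGTG in 6.49%. The G-box was found upstream of 4 of the 10 genes, PUB18, PUB19, PUB23 and PUB24, and PUB19, which did not pass the test, held 3 copies. PUB24 was the sole holder among the 10 of the GCC box GCCGCC, which 1.87% of all windows held. Matches of this kind describe letters in the window and are not measured binding sites. The annotated gene start lay 0 bases before the first codon in PUB24, 22 in PUB20 and 32 in PUB12, against 111 to 358 in the others. The windows may therefore differ in kind, and some may hold transcribed sequence.

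Levels are given below as counts per 1e6 counts (CPM), computed from the counts and the library scaling factors, or as counts for PUB21 and PUB54. For the 10 PUB genes they are listed for the 3 libraries of a group in the order of their replicate numbers, and other genes are given by their means. Changes are log2 ratios, submerged over air, with a standard error (SE), and means carry a standard deviation (SD, n = 3 per group).

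PUB22, PUB23 and PUB24 are related ligases that act together to limit responses to microbial patterns. PUB22 is known to mark the exocyst subunit EXO70B2 for degradation. PUB22 had 30.6, 33.2 and 39.4 CPM in submerged seedlings, against 6.10, 3.43 and 4.23 CPM in air. Every submerged library lay well above every air library, and air replicate 1 was the highest of its group. The change was 2.88 ± 0.17 on the log2 scale (adjusted p = 1.34e-08 by edgeR's test). PUB23 had 76.3, 97.6 and 97.2 CPM in submerged seedlings, against 5.49, 7.38 and 8.16 CPM in air. Its groups were again far apart, with submerged replicate 1 the lowest of the submerged libraries. The log2 fold change was 3.70 ± 0.13 (adjusted p = 2.01e-10 by edgeR's test). An annotated gene on the opposite strand, AT2G35935, shares 22.3% of the 50-base stretches of the PUB23 transcript, and it was listed at 0 counts in each of the 6 libraries. How strand was treated in counting is not stated, so the PUB23 counts could include reads of that gene, and this was not tested.

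PUB24 is the remaining member of that group and stood low in every library. It had 2.40, 3.45 and 3.36 CPM in submerged seedlings, against 1.61, 2.16 and 1.18 CPM in air. The groups did not overlap, but the lowest submerged library and the highest air library were close together. The log2 fold change was 0.88 ± 0.30 (adjusted p = 0.0231 by edgeR's test). That call was lost without submerged replicate 2 (0.79, adjusted p = 0.0887 by edgeR's test), submerged replicate 3 (0.81, adjusted p = 0.0628), air replicate 1 (0.86, adjusted p = 0.0639) or air replicate 3 (0.70, adjusted p = 0.0801), while over its other alternatives the adjusted p ran from 0.0138 to 0.0462.

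PUB20 and PUB21 form the branch related to the elicitor-responsive parsley gene. PUB20 had 67.7, 76.7 and 75.1 CPM in submerged seedlings, against 4.99, 3.998 and 5.16 CPM in air. Both groups were tight and widely separated. Its log2 fold change was 3.95 ± 0.10 (adjusted p = 1.64e-11 by edgeR's test). PUB21 was near the limit of detection, with 12, 0 and 4 counts in submerged seedlings and 0 counts in each air library. Submerged replicate 2 was thus no different from air, and the gene was below the count filter of the test. Against a detection floor of 6 counts (3 read pairs) summed over the air group, its pooled level in submerged seedlings was 2.54-fold the floor. That ratio carries no counting error. Without the count filter PUB21 passed edgeR's test (adjusted p = 0.0455), and DESeq2 left it just short (adjusted p = 0.0512). Both fits used the undivided counts, in which a read pair appears to count as 2, and with halved counts PUB21 was not tested.

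PUB18 and PUB19 are paralogs that limit abscisic acid responses in guard cells, and PUB18 is known to target the exocyst subunit EXO70B1. PUB18 had 10.1, 12.7 and 10.9 CPM in submerged seedlings, against 0.768, 0.658 and 0.787 CPM in air. The air libraries were uniformly low and the groups were far apart. Its log2 fold change was 3.92 ± 0.20 (adjusted p = 4.34e-09 by edgeR's test). PUB19 had 1.08, 0.636 and 0.465 CPM in submerged seedlings, against 0.384, 0.141 and 0.590 CPM in air. These groups overlapped, since air replicate 3 exceeded submerged replicate 3. PUB19 stood at 1.00 ± 0.56 on the log2 scale (adjusted p = 0.152 by edgeR's test), on 55 counts in the submerged group and 25 in air.

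PUB12 and PUB13 are recruited to the flagellin receptor complex, where the co-receptor kinase BAK1 phosphorylates them. PUB13 had 64.6, 68.3 and 66.5 CPM in submerged seedlings, against 42.0, 44.3 and 44.7 CPM in air. Each group was tight and the groups did not overlap. The rise was 0.61 ± 0.06 on the log2 scale (adjusted p = 1.64e-06 by edgeR's test), or 1.52-fold. PUB12 had 5.71, 5.31 and 7.95 CPM in submerged seedlings, against 4.88, 5.17 and 5.21 CPM in air. All submerged values were above all air values, by a narrow margin for submerged replicate 2, and submerged replicate 3 stood above the rest. PUB12 did not pass the test, at 0.31 ± 0.19 (adjusted p = 0.182 by edgeR's test). Groups did not overlap, with submerged higher, in 8 of the 9 tested PUB genes and in 32.2% of all genes tested.

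PUB54 is the shortest of the 10 proteins and differs from the others in its gene structure. It had 28, 18 and 22 counts in submerged seedlings, against 2, 0 and 0 counts in air. The air counts lay in air replicate 1 alone. The ratio of pooled levels was 32.4, with a 95% counting interval of 5.43 to 1316 that covers counting error only. Without air replicate 1, the submerged level of PUB54 was 6.64-fold the floor, a ratio without counting error. The adjusted p in edgeR's test was 0.000178, and its fitted log2 fold change is not a reliable size at so few air counts. With halved counts PUB54 fell below the count filter and was not tested.

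**Figure D1:**
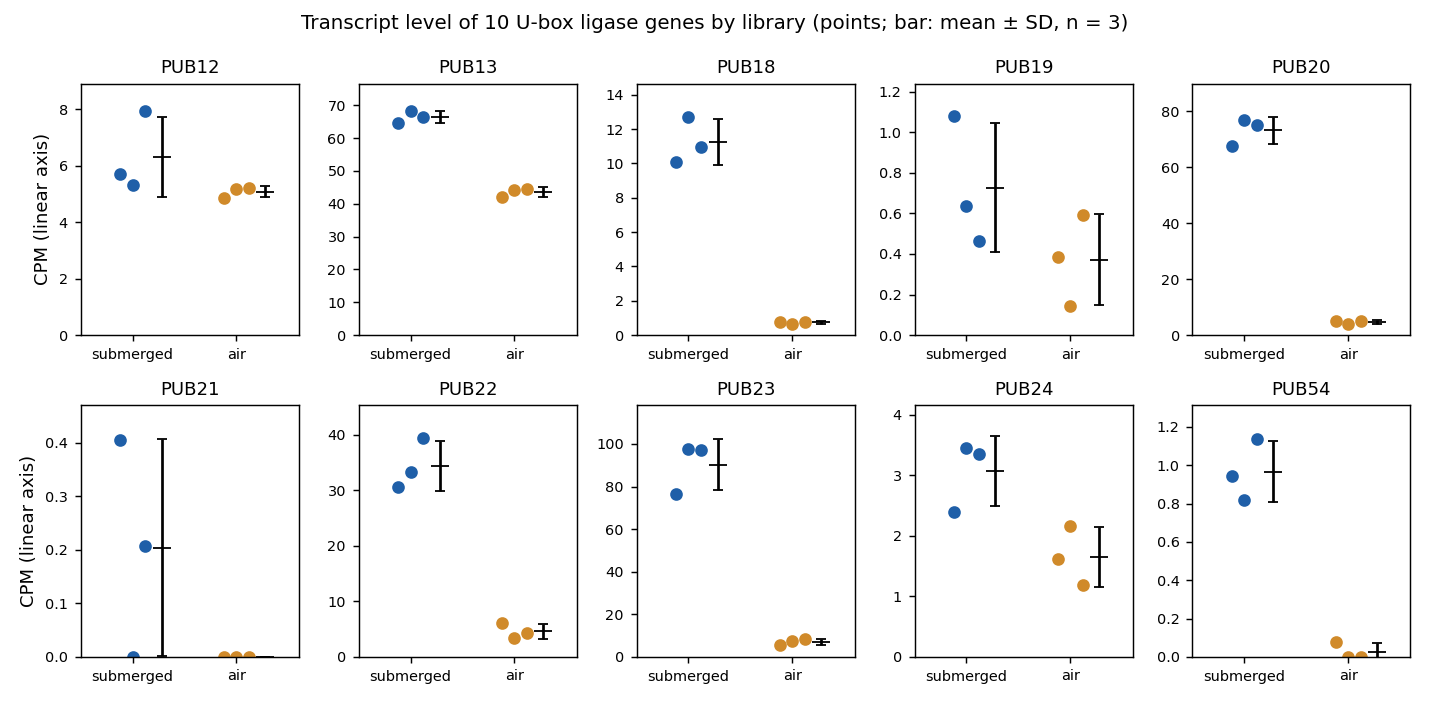
Transcript level of each of the 10 PUB genes in CPM (linear vertical axes that start at 0), with the 3 submerged libraries to the left of the 3 air libraries; points are libraries and the bars give mean ± SD. PUB18, PUB20, PUB22 and PUB23 show wide gaps between the groups, while PUB19 overlaps and PUB21 has 0 counts in air.

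The authors' deposited table gave the same calls: 7 of the 10 genes had a false discovery rate under 0.05 there, all higher in submerged seedlings, and all of them were also called here. The log2 fold changes in the authors' deposited table differed from those given here by at most 0.016 for the 9 tested genes. In the authors' deposited table PUB12, PUB19 and PUB21 had false discovery rates of 0.237, 0.167 and 0.0896.

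Levels per transcript length, as the TPM values (transcripts per 1e6) of the deposited table, placed the 10 genes in a different order in the 2 groups. In submerged seedlings PUB23 (86.9 ± 10.8 TPM) and PUB20 (84.9 ± 5.02 TPM) were the most abundant and their libraries overlapped. PUB13 followed at 40.2 ± 1.27 TPM and PUB22 at 31.1 ± 3.43 TPM, each apart from its neighbours. PUB18 was at 7.19 ± 0.879 TPM and PUB12 at 5.31 ± 1.08 TPM, with nearly touching ranges. PUB24 (3.67 ± 0.664 TPM), PUB54 (1.33 ± 0.197 TPM), PUB19 (0.495 ± 0.224 TPM) and PUB21 (0.195 ± 0.196 TPM) were the least abundant, and only the ranges of PUB19 and PUB21 overlapped among them.

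In air, PUB13 was the most abundant of the 10 at 26.3 ± 1.15 TPM, with no other member near it. PUB23 (6.74 ± 1.34 TPM) and PUB20 (5.46 ± 0.632 TPM) came next and overlapped, and PUB12 (4.28 ± 0.198 TPM) and PUB22 (4.14 ± 1.19 TPM) overlapped as well. PUB22 in air replicate 1, at 5.47 TPM, also lay within the air ranges of PUB20 and PUB23. PUB24 was at 1.98 ± 0.628 TPM and PUB18 at 0.470 ± 0.0356 TPM. PUB19 (0.25 ± 0.15 TPM) and PUB54 (0.0350 ± 0.0606 TPM) lay below them, their ranges overlapping, and PUB21 was listed at 0. PUB12 and PUB22 thus stood at like levels in air and apart in submerged seedlings.

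The coding sequences fell into the paralog pairs named above. PUB22 and PUB23 were identical at 75.5% of the bases of the longer coding sequence, PUB18 and PUB19 at 72.4%, PUB20 and PUB21 at 68.6%, and PUB12 and PUB13 at 61.1%. PUB24 was identical to PUB22 at 55.5% and to PUB23 at 53.6%, near its 53.8% with PUB21 and 53% with PUB20. Apart from the antisense overlap of PUB23, none of the 10 transcripts shared a stretch of 50 identical bases with a transcript of another gene. In the TAIR10.1 annotation the genes lie on 4 chromosomes, with PUB12 at chr2:12368220-12370420 (minus strand), PUB13 at chr3:17123731-17126897 (minus strand), PUB18 at chr1:3484399-3486965 (plus strand) and PUB19 at chr1:22198266-22200687 (plus strand). Further genes are PUB20 at chr1:24637196-24638608 (plus strand), PUB21 at chr5:14887429-14889151 (plus strand) and PUB22 at chr3:19440617-19442427 (minus strand). The others are PUB23 at chr2:15082855-15084559 (minus strand), PUB24 at chr3:3736578-3738208 (minus strand) and PUB54 at chr1:246262-248440 (minus strand). Genes with a single exon were PUB18, PUB19, PUB21, PUB22 and PUB23. PUB20 and PUB24 had 2 exons, PUB12 and PUB13 had 4, and PUB54 had 7. The encoded proteins ran from 308 amino acids for PUB54 to 697 for PUB18.

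Whether the members of a pair changed unequally was asked from the log2 ratio of their counts (0.5 added to each) in every library. PUB18 over PUB19 was 3.20, 4.27 and 4.48 in submerged seedlings, against 0.97, 2.05 and 0.40 in air. The groups did not overlap, and the means differed by 2.85. PUB22 over PUB23 was -1.32, -1.55 and -1.30 in submerged seedlings, against 0.15, -1.10 and -0.94 in air. Here too the groups did not overlap, the difference of the means was -0.76, and air replicate 1 lay apart from the other air libraries; without it the difference was -0.37. Both pairs gave p = 0.1 in a two-sided exact permutation test, which is the smallest p that 3 libraries against 3 can give, and p = 0.2 when adjusted over the 4 pairs. PUB12 over PUB13 averaged -3.41 ± 0.32 in submerged seedlings and -3.10 ± 0.005 in air, and the groups overlapped (exact permutation p = 0.4, adjusted p = 0.5). PUB20 over PUB21 differed by 1.41 with overlapping groups (exact permutation p = 0.5, adjusted p = 0.5), and this value rests on the added 0.5, since PUB21 had 0 counts in air. It was 0.11 without submerged replicate 2, and with 2 added to each count it was 2.53 and with halved counts 2.01, both with groups that did not overlap (exact permutation p = 0.1 for each).

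**Figure D2:**
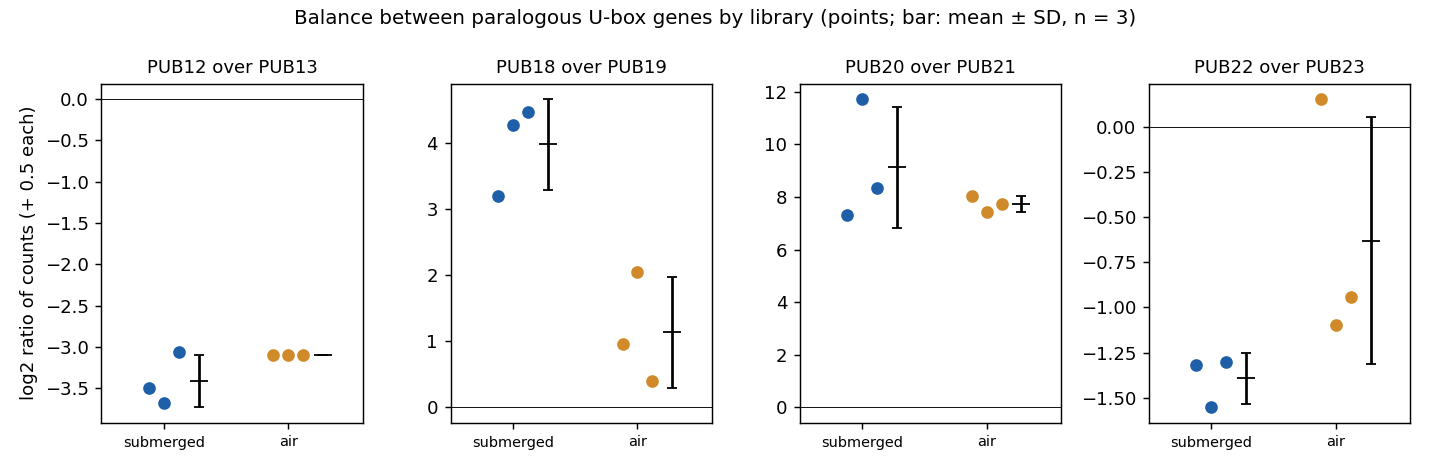
Log2 ratio of the counts of 2 paralogs (0.5 added to each) in each library for the 4 pairs, submerged to the left of air; points are libraries and the bars give mean ± SD (n = 3), and each panel has its own vertical axis. The groups are separate for PUB18 over PUB19 and for PUB22 over PUB23, and overlap for the other 2 pairs.

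Other U-box genes moved in both directions. Of 43 listed, 38 were tested, and 20 were called higher and 7 lower by edgeR's test, where 28.8% of all genes were called higher and 26.1% lower. The median log2 fold change of the 38 was 0.30. The largest rises were those of PUB27 (AT5G64660), also called CMPG2 (2.79 ± 0.18, adjusted p = 3.14e-08), PUB28 (1.85 ± 0.37, adjusted p = 0.000855), PUB45 (1.45 ± 0.07, adjusted p = 3.92e-09) and PUB31 (1.40 ± 0.12, adjusted p = 6.71e-07). PUB27 averaged 31.3 ± 1.90 CPM in submerged seedlings and 4.59 ± 1.70 CPM in air. A rise of at least 4-fold was called for 1 of the 38, PUB27, beside the 5 of 9 given above and 3.46% of all genes. The 5 include PUB54, which passed the count filter through its submerged libraries alone. The members and this list were chosen with earlier results of these data known, so this contrast is not a test.

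The largest falls were those of PUB35, a kinase with a U-box (-2.08 ± 0.56, adjusted p = 0.00647, on 14 counts in submerged seedlings and 58 in air), PUB3 (-1.04 ± 0.10, adjusted p = 1.67e-06), PUB8 (-0.95 ± 0.16, adjusted p = 0.000194) and PUB62 (AT5G05230, -0.68 ± 0.10, adjusted p = 5.47e-05). PUB35 passed the filter on low counts through its air libraries alone. PUB3 averaged 12.8 ± 1.26 CPM in submerged seedlings and 26.3 ± 2.06 CPM in air, with no overlap between libraries.

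**Figure D3:**
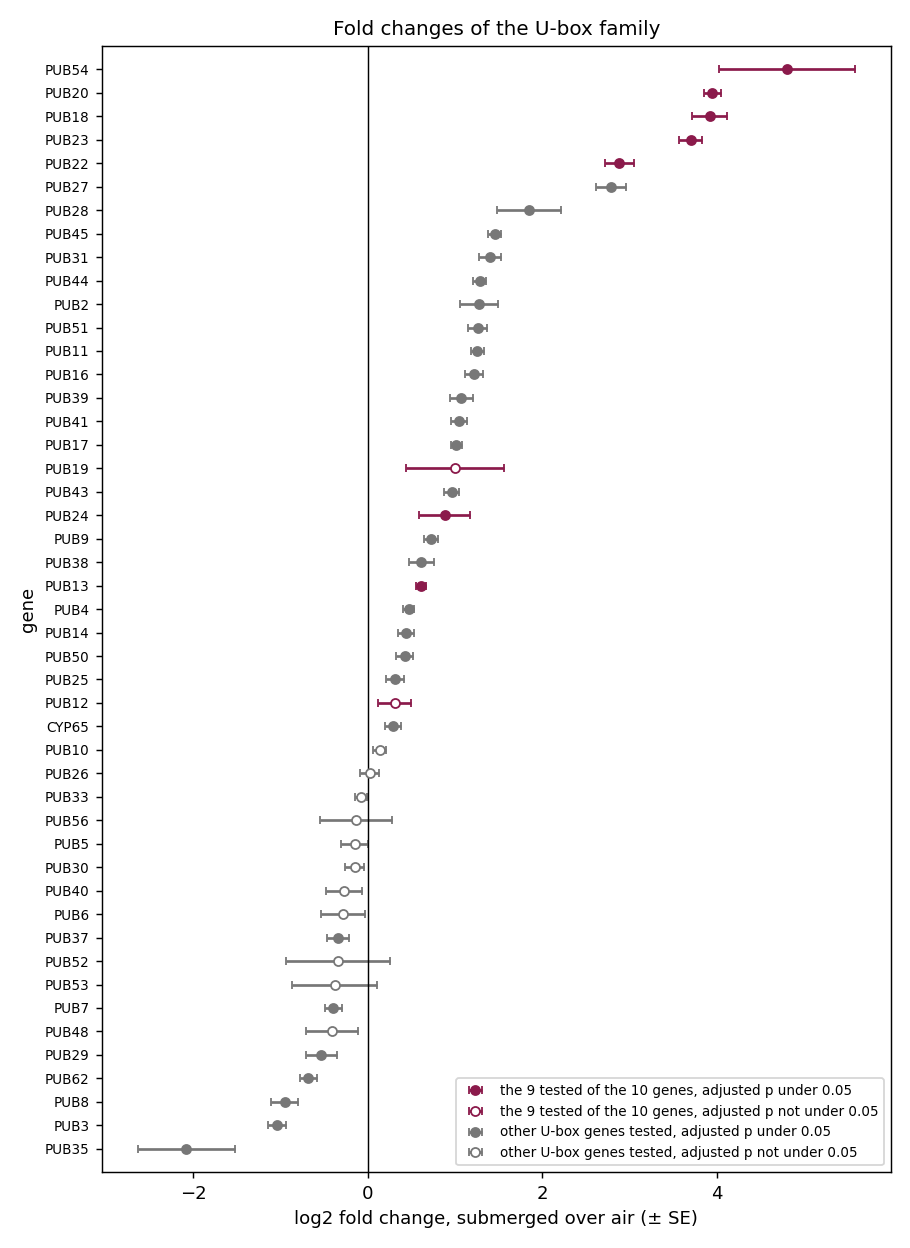
Log2 fold change of submerged over air (± SE) for the 9 tested PUB genes described here and the 38 other U-box genes tested; filled points passed edgeR's test at an adjusted p under 0.05 and open points did not. PUB54, PUB20, PUB18, PUB23 and PUB22 lie at the top, followed by PUB27; the fitted size for PUB54 rests on 2 counts in air.

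Known targets, kinases and partners of U-box ligases were also mostly higher under water. Of 13 listed and tested, 11 were called higher and 0 lower by edgeR's test (0 lower at an unadjusted p under 0.05, and 0 by DESeq2), with a median log2 fold change of 1.20. Shares over all genes were 28.8% higher and 26.1% lower. This list was chosen with earlier results of these data known, so its counts are not a test of such partners. MYB15 passed the filter on low counts through its submerged libraries alone. Among receptors and their kinases, FLS2 averaged 148 ± 13.5 CPM in submerged seedlings and 41.9 ± 0.772 CPM in air (1.82 ± 0.07, adjusted p = 3.63e-10 by edgeR's test). The chitin receptor kinase LYK5, a known PUB13 target, rose by 1.98 ± 0.17 and the receptor-like cytoplasmic kinase BIK1 by 1.43 ± 0.08. BAK1 rose by 0.50 ± 0.08, whereas the brassinosteroid receptor BRI1 was at -0.05 ± 0.06 (adjusted p = 0.476).

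Both exocyst subunits on this list, each a known target of a U-box ligase, rose. EXO70B2, the PUB22 target, averaged 43.3 ± 2.98 CPM in submerged seedlings and 7.63 ± 0.925 CPM in air (2.50 ± 0.10, adjusted p = 4.42e-10 by edgeR's test). EXO70B1, the PUB18 target, averaged 127 ± 2.58 CPM in submerged seedlings and 55.2 ± 2.01 CPM in air (1.20 ± 0.06, adjusted p = 1.72e-09 by edgeR's test). MPK3, a kinase known to phosphorylate PUB22, rose by 1.05 ± 0.07, and RABA4B, a small GTPase that binds PUB13, by 1.30 ± 0.07.

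The remaining partners act in abscisic acid signalling, protein breakdown and transcription. The phosphatase ABI1, a target of PUB12 and PUB13, rose by 0.35 ± 0.06, and the receptor PYL9, a target of PUB22 and PUB23, by 0.40 ± 0.12 (adjusted p = 0.0154 by edgeR's test). The PYL9 call was lost without submerged replicate 2 or air replicate 2. RPN12A, a proteasome subunit that PUB22 and PUB23 ubiquitinate, stood at 0.08 ± 0.06 (adjusted p = 0.276). MYB15, a cold-response regulator and a target of PUB25 and PUB26, had 208 counts in submerged seedlings and 4 in air, a ratio of pooled levels of 49.5 (95% counting interval 13.4 to 414). PUB25 stood at 0.31 ± 0.10 (adjusted p = 0.0206 by edgeR's test) and PUB26 at 0.02 ± 0.11 (adjusted p = 0.888); these 2 genes were chosen after their values were seen, and the PUB25 call was lost without submerged replicate 2, submerged replicate 3 or air replicate 1.

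The enzymes that feed ubiquitin to these ligases moved in both directions. Of 7 activating (E1) enzymes and conjugating enzymes of the UBC8 group, 3 were called higher and 2 lower, with a median of -0.05, where 28.8% of all genes were called higher and 26.1% lower; with 7 genes these counts are not read as a result about the list. UBC9 rose by 1.04 ± 0.05, UBC10 by 0.45 ± 0.05 and the E1 gene UBA1 by 0.41 ± 0.06, whereas UBC8 (-0.42 ± 0.05) and UBA2 (-0.30 ± 0.07) fell. The UBC8-group genes are close in sequence and could draw on the same reads, and this was not checked, so the value of each is uncertain.

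**Figure D4:**
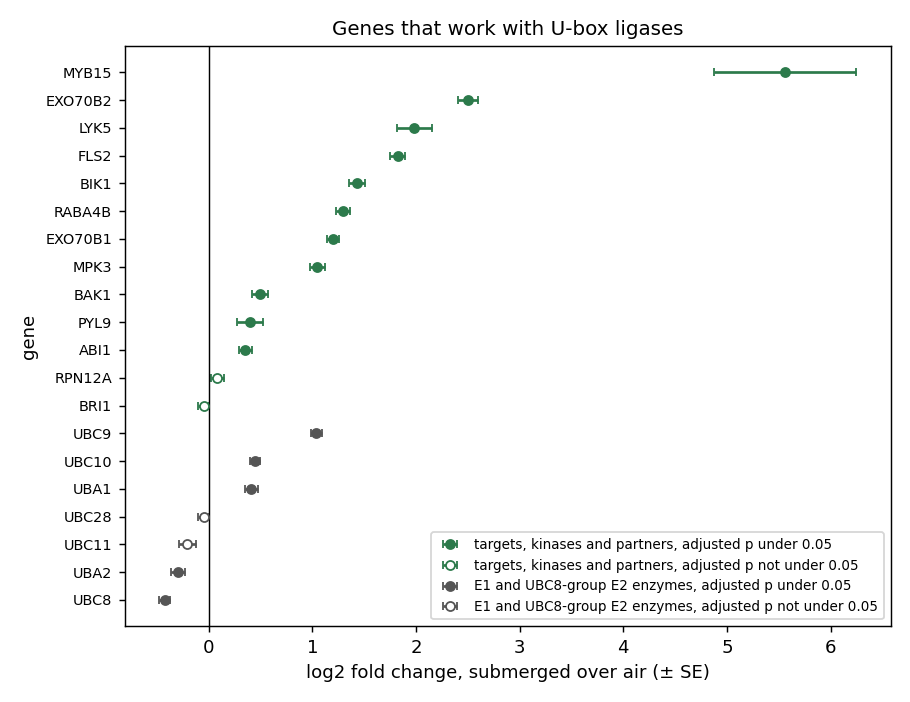
Log2 fold change of submerged over air (± SE) for 13 targets, kinases and partners of U-box ligases (upper block) and 7 E1 and E2 enzymes (lower block); filled points passed edgeR's test at an adjusted p under 0.05. All 11 called partners lie right of 0, and the E1 and E2 genes lie on both sides; the fitted size for MYB15 rests on 4 counts in air.

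Library totals, in units of 1e6 counts, ran from 20.04 to 29.7 in submerged seedlings and from 20.3 to 25.9 in air. Of 18 root-preferred markers, 17 were tested, 2 (SULTR1;2 and NRT2.1) were called higher and 1, PYK10, lower, where 28.8% of all genes were called higher and 26.1% lower. Summed over all 18 markers, the level ran from 936 to 1332 CPM in submerged seedlings and from 1718 to 2036 CPM in air, lower under water with no overlap. PYK10, which made up most of that sum, fell by 0.82 on the log2 scale (SE 0.11, edgeR adjusted p = 5.13e-05). Without PYK10 the sum ran from 155 to 180 CPM in submerged seedlings and from 110 to 183 CPM in air, lowest in air replicate 3. MRN1 was at 0 in 5 of the 6 libraries. The part of root content in the PUB values was not tested. Over all genes 52.5% of calls were higher (5624 higher and 5094 lower), which became 39.6% (4465 higher and 6813 lower) with upper quartile scaling. That scaling put the median log2 fold change over all genes at -0.12, and the same 7 PUB genes were called higher under it.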

How the data were processed

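RNA from whole seedlings was extracted with Trizol and sequenced by a company, per the labels' protocols, and reads were placed on TAIR10, per the submitters' processing notes. Which aligner and counter were used, and how strand was treated, is not stated in the sources read here. The deposited table holds whole-number counts, RPKM and TPM per gene and library, per the file headers, and the authors' separate table gives log2 fold changes and adjusted p-values from a test that is not stated. Deposited RPKM was used once: the gene lengths it implies equalled (within 0.5%) the exon lengths of the RefSeq TAIR10.1 annotation for 99.3% of 22790 genes and for all 10 PUB genes. Gene models, coordinates and upstream sequence are therefore from TAIR10.1 alone.

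Tests on counts used edgeR 4.0.16 under R 4.3.3 (TMM factors, filterByExpr with minimum count 10 and minimum total 15, quasi-likelihood F test, Benjamini-Hochberg over all genes tested), after a test on simulated data. SE is the log2 fold change divided by the root of the F statistic. CPM was computed from counts and TMM factors. Of counts from 1 to 20, 85.8% to 87.4% per library were even, so low counts were read as read pairs counted as 2. For ratios of low counts, exact 95% intervals were taken on halved counts.

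Alternatives were DESeq2 1.42.0, 3 other scalings, other filters, halved counts, leaving out each library and a replicate block. All 10 members were named, all partners, and the 4 largest called changes per direction of the other lists. From the list of other U-box genes 4 entries were dropped because neither the deposited names nor the annotation call them U-box or PUB genes. Members and lists were chosen with earlier results of these data known.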

Additional observations from a re-analysis of the deposited data

How the results depend on the processing

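Of the PUB genes, PUB13, PUB18, PUB20, PUB22, PUB23 and PUB54 were called higher in every fit that tested them, and PUB12 and PUB19 in none. The number of PUB genes called higher was 7 with DESeq2, with the 3 other scalings and with the replicate block. Without a filter it was 8 of 10 tested, with PUB21 added on its few counts. With at least 5 CPM in 3 libraries it was 5 of 6 tested, and with halved counts 6 of 7 tested. It was 6 to 7 when 1 library was left out, which turned on PUB24 (log2 fold change 0.70 to 1.11). Leaving out 1 library gave 0.12 to 0.42 for PUB12, 0.58 to 0.64 for PUB13, 3.83 to 4.002 for PUB18, 0.58 to 1.44 for PUB19, 3.85 to 4.01 for PUB20, 2.71 to 3.16 for PUB22, 3.54 to 3.82 for PUB23 and 4.33 to 7.45 for PUB54.

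With upper quartile scaling 1 partner, BRI1, was called lower in place of 0, and 4 E1 and E2 genes in place of 2; that scaling shifts all genes down. Leaving out 1 library moved the other U-box genes called higher between 19 and 20 and lower between 5 and 7, the partners called higher between 10 and 11, and all genes called higher between 5134 and 5536 and lower between 4456 and 4930. The paralog differences then ran from 2.48 to 3.30 for PUB18 over PUB19, -0.996 to -0.37 for PUB22 over PUB23, -0.49 to -0.18 for PUB12 over PUB13 and 0.11 to 2.31 for PUB20 over PUB21.

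Same-numbered libraries correlated at -0.04, 0.04 and 0.04 in their deviations across genes, and unlike-numbered ones at -0.12 to 0.11. No pairing by replicate number was seen, but 3 libraries per group are too few to exclude one. With the replicate block 5470 genes were higher and 4877 lower, and the PUB calls were unchanged. Depth limits PUB19, PUB21 and PUB54, which had at most 55, 16 and 68 counts in a group.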
